A study of Rattus norvegicus with 28 samples.

Results

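The 10 genes described here are rat liver genes whose expression is set by the temporal pattern of growth hormone in plasma. They were chosen by name and role, not by a measured difference, although earlier results of these data were known. Of them, 5 are higher in male liver (Cyp2c11, Cyp2c13, Cyp2a2, Cyp3a2 and Hsd3b5) and 3 are higher in female liver (Cyp2c12, A1bg and Prlr). The other 2 are regulators that themselves respond to the hormone (Bcl6 and Trim24). All 10 were measured, each by exactly 1 transcript cluster, among 36685 clusters and 18166 genes with a unique symbol on the array. A transcript cluster is the set of probes along a gene that the array summarises as 1 value, given here as log2 signal.

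Livers came from 28 female Harlan Sprague-Dawley rats of a long-term feeding study, with 1 array per rat. The diet held 33% maize, which was the nearest isogenic non-transgenic variety for 10 control rats, the glyphosate-tolerant transgenic maize NK603 grown without Roundup for 9 rats (NK603) and the same variety sprayed with Roundup in the field for 9 rats (NK603+R). Rats were killed at 540 to 737 days in the control group, 393 to 737 days with NK603 and 533 to 737 days with NK603+R, and 2, 4 and 3 of them, respectively, were killed before 700 days. Early deaths were on welfare grounds, so age at death and illness cannot be told apart. The paper reports mammary tumours as the main cause of death, borne by fewer control rats than NK603 or NK603+R rats. Tumours of single rats are not in the labels, so diet and tumours cannot be told apart here. No male liver was measured here that would give the male level of any gene.

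The array medians lay between 5.93 and 6.08, and no arrays were identical. The hepatocyte markers with a unique symbol, Alb among them, numbered 4 and lay between 11.98 and 14.12 in all rats. The list means of other cell types were 7.89 to 9.47 for Kupffer cells, 4.95 to 7.002 for neutrophils and 6.01 to 7.95 for pancreas. In whole liver, fewer cells of a type and less RNA per cell cannot be told apart. Cyp2c11, Cyp2c12 and Cyp2c13 belong to families of near-identical genes, as do Cyp2a2, Cyp3a2, Hsd3b5 and A1bg, so that part of their signal may come from relatives that share probe sequence.

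Male rats release growth hormone in pulses separated by intervals with almost none in plasma, whereas females hold a steadier level. Each pulse activates JAK2 and the transcription factor STAT5b in hepatocytes, which raises the male genes, and the steadier pattern keeps these low and the female genes high. STAT5 and the repressor BCL6 bind related DNA elements, and HNF6, the product of Onecut1, is a liver factor that acts on female genes such as Cyp2c12.

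Sequence upstream of the start sites is shown for the genes on which the results turn, from RefSeq promoter entries of build GRCr8. Entries were found for 8 of the 10 genes, not for Cyp2a2 and Hsd3b5. The start is that of the promoter entry, and some RefSeq gene models reach beyond it, so that all 250 bases of the windows of Cyp2c12, A1bg and both starts of Prlr, and 51 bases of that of Cyp2c13, lie inside the gene model of the same gene. In the 250 bases before each start, both strands were searched for TTCNNNGAA, the core of STAT5 and BCL6 elements, ATTGAT, a core bound by HNF6, and TATAAA. Among 33469 windows of the same length, 7.67% held TTCNNNGAA, 7.10% held ATTGAT and 12.9% held TATAAA. Cyp2c11, the gene with the widest departure described below, held TATAAA 31 to 26 bases before its start and neither of the others. Its window lies on the forward strand at chr1:246174966-246175215, with TATAAA in capitals.
Cyp2c11: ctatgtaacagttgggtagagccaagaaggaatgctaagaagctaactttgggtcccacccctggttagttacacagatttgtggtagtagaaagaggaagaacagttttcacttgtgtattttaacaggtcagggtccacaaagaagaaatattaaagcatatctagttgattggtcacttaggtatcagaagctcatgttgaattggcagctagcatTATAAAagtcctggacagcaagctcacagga

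ATTGAT on the gene's strand was present in Cyp2c13, Cyp2c12 and A1bg, at 60 to 55, 71 to 66 and 135 to 130 bases before the start of the promoter entry, and on the opposite strand in Cyp2c12 and Trim24. The first 3 are shown as stretches of 30 bases, with ATTGAT in capitals, all on the reverse strand, at chr1:248787231-248787260, chr1:248677088-248677117 and chr7:94387614-94387643.
Cyp2c13: aaatcacaaaatATTGATtctgatggtgca
Cyp2c12: caaaagcaaaatATTGATttttatggtgtt
A1bg: ttacacattattATTGATtagcattattgc
The stretches of Cyp2c13 and Cyp2c12, which are listed under opposite sexes, had the same letter at 22 of 30 positions, against 14 for Cyp2c12 and A1bg. These counts include the letters of ATTGAT, on which the stretches were aligned. Over the whole windows, aligned with gaps, identical bases made up 71.2% of 250 for Cyp2c13 and Cyp2c12 and 55.6% for Cyp2c12 and A1bg. TTCNNNGAA was found in A1bg and before the second start of Prlr, with 1 match in each. It was absent before the first start of Prlr and from every other window of the 8 genes. Any part of these matches in how the genes varied between rats was not tested. The stretches are at chr7:94387546-94387575 on the reverse strand and at chr2:60909473-60909502 on the forward strand.
A1bg, TTCNNNGAA in capitals: tgcccctaccTTCCAGGAAgggcaaacaaa
Prlr, TTCNNNGAA in capitals: ccaaaatgagTTCTAGGAAtaaagaatatc
Matches describe letters in these windows, and binding was not measured.

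Cyp2c11 encodes the main steroid hydroxylase of adult male rat liver. Its log2 signal ranged from 4.61 through a median of 4.76 to 5.11 in the 10 control rats, and from 4.70 through 5.04 to 5.61 in the 9 NK603 rats. In the 9 NK603+R rats the lowest was 4.52, the median 4.85 and the highest 7.98. The ranges of the 3 diets overlapped, and the value of 7.98 belonged to 1 rat, NK603+R replicate 1, which was killed at 631 days. The other 27 rats lay between 4.52 and 5.61 with a mean of 4.92 ± 0.25 (SD), so that the signal of this rat was 8.33-fold above them and 2.37 on the log2 scale above the next rat, NK603 replicate 2.

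The other male-pattern genes had their highest signal in the same rat. Hsd3b5, a steroid reductase of male liver, was 6.48 in NK603+R replicate 1 and 3.89 to 4.86 in the other 27 rats, a 3.90-fold departure from their mean. Cyp2c13, a further male steroid hydroxylase, was 8.41 against 4.48 to 6.96, or 5.69-fold above the mean of the others. Neither range of the other rats reached the value of this animal. Cyp2a2, which hydroxylates testosterone, was 5.86 against 3.44 to 5.55, and was 0.31 above the next rat. Cyp3a2, a male-predominant member of the main drug-metabolising family, was 5.07 against 3.68 to 4.56. The signal of Cyp2a2 stood 2.89-fold and that of Cyp3a2 1.93-fold above the mean of the other 27 rats. For all 5 genes the mean of the other rats, 4.12 to 5.90, lay below the lowest array median, and detection above background was not assessed, so these are ratios of array signal and may understate ratios of RNA.

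**Figure D1:**
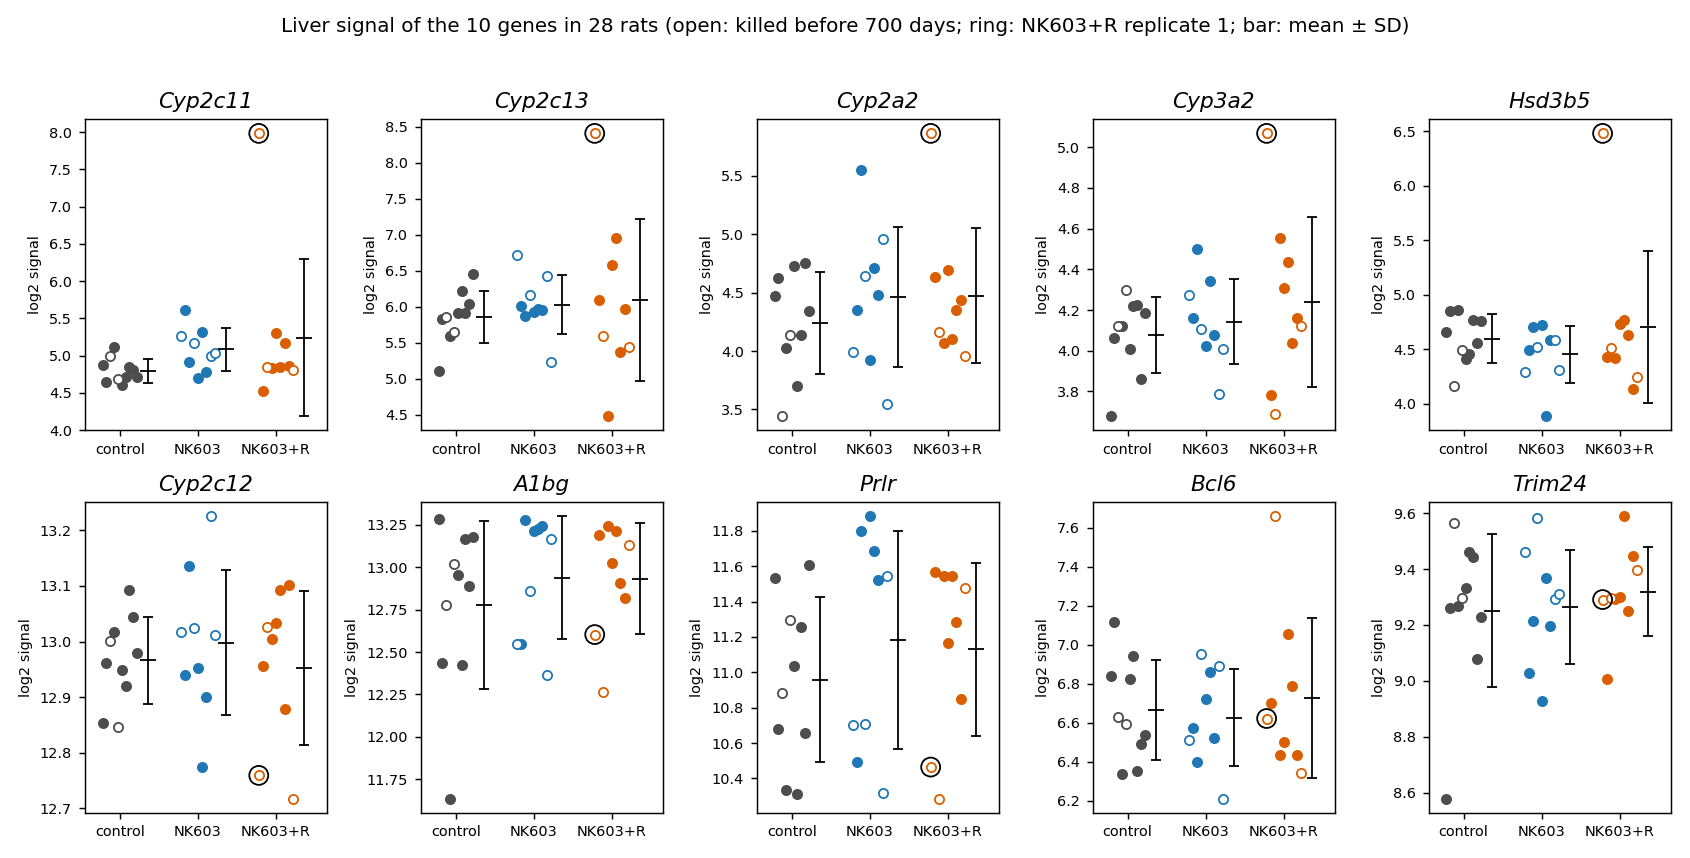
Log2 signal of each of the 10 genes (vertical axes) in 28 rats, by diet (horizontal axis). Points are rats, open where the rat was killed before 700 days, the bar gives mean ± SD per diet, and the ring marks NK603+R replicate 1, which is the highest point in all 5 male-pattern genes of the upper row (7.98 for Cyp2c11, 8.41 for Cyp2c13).

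Over all clusters, NK603+R replicate 1 was the highest of 28 rats in 3.33%, and it was the highest in 5 of the 5 male-pattern genes. It exceeded the next rat by more than 1 on the log2 scale in 7 clusters, or 0.0191% of 36685, and 3 of the 7 were Cyp2c11, Hsd3b5 and Cyp2c13. Of the other 4, 1 was annotated to the estrogen sulfotransferase Sult1e1 in both of its entries (5.66, next rat 4.10) and 1 to 2 genes of the major urinary protein family (6.96, next rat 5.48). Both families are known as male-predominant in rat liver. The widest gaps of all, 3.84 and 2.94, were in 2 clusters with no gene in the annotation used here. In the other 27 rats the number of clusters with such a gap ranged from 0 to 49 with a median of 1. This rat was singled out after its values were seen, and no test is attached to it.

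The female genes and the regulators did not depart in NK603+R replicate 1 to the same extent. Cyp2c12 was 12.76, the second lowest value, in a range of 12.72 to 13.23. A1bg was 12.60 and Prlr 10.46, the 8th and the 5th lowest values, and Bcl6 (6.62) and Trim24 (9.29) lay within the ranges of the other rats. Ghr, which encodes the growth hormone receptor, was 12.54 in it, the second lowest of a range from 12.28 to 13.05. Of the 5 measured genes of a separate list of male-predominant liver genes, 1 was highest in this rat, Mup5, at 5.60. Rgn (11.95) was second highest, while Car3 (11.89), Cyp3a18 (8.54) and Mup4 (3.53) ranked 8th, 16th and 21st from the top. The mean over these 5 genes was 8.30 in this rat, the highest, and 6.96 to 8.26 in the others. A separate list of female-predominant genes had 4 measured, of which 0 were lowest in this rat. Sult2a1 (11.78), Sult2a2 (8.67) and Cyp2a1 (12.68) lay above the means of the other rats (11.25, 8.11 and 12.61). Cyp3a9 (8.70) lay below that mean (9.48).

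Neutrophil markers and part of the acute phase genes were also high in this rat. Its mean over 4 neutrophil markers was 6.71, the second of 28 rats, and its mean over 15 acute phase genes was 11.72, the third. Mpo was highest in it (5.60), with S100a8 (5.22), S100a9 (7.96) and Mmp8 (8.06) second. Of the 15 acute phase genes 0 were highest in this rat. A2m (9.41), Fgg (13.21), Crp (13.40) and Itih4 (13.34) lay below the means of the other rats (10.32, 13.30, 13.45 and 13.39). The remaining acute phase genes lay above theirs, among them Lcn2 (10.23 against 7.88) and Cxcl1 (9.20 against 7.11). NK603 replicate 8, killed at 393 days, had the highest acute phase mean (12.69), and its signals were 4.99 for Cyp2c11, 4.59 for Hsd3b5 and 6.43 for Cyp2c13, all within the range of the remaining rats. NK603 replicate 2 had the next highest acute phase mean (12.07) and the second highest Cyp2c11 signal of all rats, 5.61. Its Hsd3b5 was 4.49 and its Cyp2c13 6.01. NK603+R replicate 1 is labelled female like the others, and the array gave little to check this with. The only cluster annotated to exactly 1 gene on chromosome Y, Uty, was 9.49 in it and 9.29 to 9.91 in the other 27 rats. In these rats, all labelled female, Uty lay above the highest array median (6.08). Its signal therefore cannot be read as RNA from chromosome Y, and it gives no check of the sex of this rat. What set the male genes of NK603+R replicate 1 was not tested.

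Between rats, the spread of the male-pattern genes rested on this animal to different degrees. The SD around the diet means was 0.62 for Cyp2c11, the 97.4th percentile of all clusters, and 0.23, the 47.7th percentile, without NK603+R replicate 1. For Hsd3b5 the percentile went from 88.7 to 49.4, and for Cyp3a2 from 66.2 to 47.8. The signals of Cyp2c13 and Cyp2a2 varied between the remaining rats as well, since they stayed at the 94.2nd and 90.4th percentiles. Their mean signals in those rats, 5.90 and 4.33, lay below the lowest array median, so how much of this spread is background is unknown. The lowest Cyp2c13 signal, 4.48, was in NK603+R replicate 4, and the lowest Cyp2a2 signal, 3.44, in control replicate 3.

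Cyp2c12, the female steroid sulfate hydroxylase that is the classical marker of the continuous pattern, varied little in array signal. Control rats ranged from 12.85 through a median of 12.97 to 13.09, NK603 rats from 12.78 through 13.01 to 13.23 and NK603+R rats from 12.72 through 13.01 to 13.10. Its SD within diets lay at the 3.11th percentile of all clusters. All 28 rats therefore fell within 0.51 on the log2 scale, and the diets overlapped throughout. Some other bright clusters had low spreads too, Alb (mean 14.06) at the 0.008th percentile and Ttr (mean 13.56) at the 0.12th. A1bg, at a mean of 12.88, was at the 85.3rd. Whether signal near the top of the scale compresses differences between rats was not assessed.

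The other female genes were more variable. A1bg, a plasma glycoprotein of the immunoglobulin superfamily, ranged from 11.64 through a median of 12.92 to 13.28 in control rats, from 12.36 through 13.17 to 13.28 in NK603 rats and from 12.27 through 13.02 to 13.24 in NK603+R rats. Prlr, the receptor for prolactin, ranged from 10.31 through 10.96 to 11.61, from 10.32 through 11.52 to 11.88 and from 10.29 through 11.29 to 11.57 in the same order. Their spreads within diets were at the 85.3rd and 94.1st percentiles. Low and high rats occurred on every diet, and the 3 ranges overlapped for both genes.

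The regulators lay between these extremes. Bcl6, a transcriptional repressor that is higher in male liver in mice, ranged from 6.34 through a median of 6.61 to 7.12 in control rats, from 6.21 through 6.57 to 6.95 with NK603 and from 6.34 through 6.62 to 7.66 with NK603+R. Its highest value was that of NK603+R replicate 3, killed at 554 days, in which A1bg of its diet (12.27) and Prlr of all rats (10.29) were lowest. Trim24, a transcriptional cofactor that is higher in female liver in mice, ranged from 8.58 through 9.28 to 9.57, from 8.93 through 9.29 to 9.58 and from 9.01 through 9.30 to 9.59. The 3 diets overlapped in both genes.

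The study asked whether the diets differed, and none of the 10 genes differed between diets past the threshold. With limma, which moderates each cluster's variance by that of all clusters, 0 members passed an adjusted p under 0.05 in any of the 3 comparisons, as did 0 of 36685 clusters (0.0%). At an unadjusted p under 0.01, the limit used by the study, 0 of 10 members passed for NK603 against control, where 1.19% of clusters did, 0 for NK603+R against control, where 1.04% did, and 0 for NK603+R against NK603, where 1.14% did. At an unadjusted p under 0.05 only Cyp2c11 passed, higher by 0.29 (SE 0.10, unadjusted p = 0.0121, adjusted p = 0.820 by limma) in NK603 than in control rats. In a limma fit of all 3 diets together, the same difference of 0.29 had an SE of 0.27 and an unadjusted p of 0.297. That fit draws its variance from the NK603+R rats as well, in which the SD of Cyp2c11 was 1.05, or 0.24 without replicate 1. The SD was 0.16 in control and 0.29 in NK603 rats. In the pairwise fit of NK603 against control 5.63% of clusters had an unadjusted p under 0.05, and 0 members did in the other comparisons, where 5.71% and 6.21% of clusters did.

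Fitted differences were small in most members and uncertain in the male genes. For NK603 minus control they ran from -0.14 for Hsd3b5 to 0.29 for Cyp2c11, with a median of 0.11 over the 10 genes and 0.01 over all clusters. For NK603+R minus control they ran from -0.01 for Cyp2c12 to 0.44 for Cyp2c11 (SE 0.31), with a median of 0.16 against 0.00 over all clusters. Without NK603+R replicate 1 the Cyp2c11 difference was 0.10, the lowest value when any 1 rat was left out. For NK603+R minus NK603 they ran from -0.05 for Prlr to 0.25 for Hsd3b5 (SE 0.23), and the latter was 0.03 without NK603+R replicate 1. The differences of the female genes were 0.16 (SE 0.19) for A1bg and 0.23 (SE 0.23) for Prlr in NK603 against control, each no larger than its standard error. Without control replicate 4 the A1bg difference was 0.03, and the Prlr difference was 0.14 without NK603 replicate 5 and 0.15 without NK603 replicate 3. The 3 comparisons share rats, so their values are not independent.

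**Figure D2:**
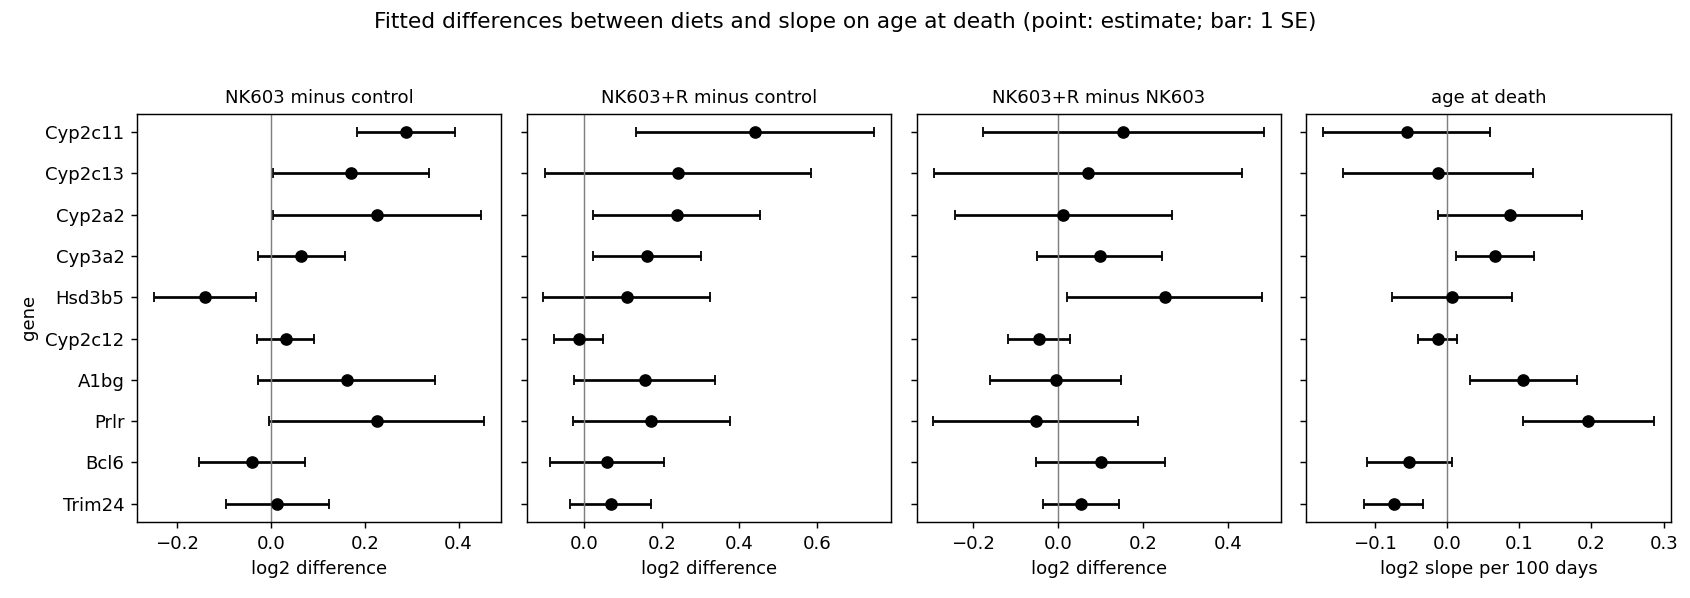
Fitted log2 differences between diets (first 3 panels) and log2 slopes per 100 days of age at death (last panel) for the 10 genes, with points as estimates and bars as 1 SE; the horizontal scale differs between panels. The SEs of Cyp2c11 and Cyp2c13 in the NK603+R comparisons are 0.31 to 0.36, against 0.06 to 0.07 for Cyp2c12, and the Prlr slope of 0.20 is the largest of the last panel.

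Age at death was examined across all 28 rats with diet as a covariate. Prlr had a slope of 0.20 on the log2 scale per 100 days (SE 0.09, unadjusted p = 0.0399, adjusted p = 0.678 by limma), which did not pass the adjustment, and 7.10% of clusters had an unadjusted p under 0.05. In the 9 rats killed before 700 days Prlr ranged from 10.29 through a median of 10.71 to 11.54, and in the 19 killed later from 10.31 through 11.29 to 11.88, so the groups overlapped almost entirely. A1bg had a slope of 0.11 (SE 0.07) and Trim24 of -0.07 (SE 0.04). The slopes of the male genes lay between -0.06 for Cyp2c11 (close to 0, -0.0021, without NK603+R replicate 1) and 0.09 for Cyp2a2, which ranged from 0.03 to 0.17 with 1 rat left out, and that of Cyp2c12 was -0.01. At an unadjusted p under 0.01, 0 of 10 members passed, against 1.98% of clusters.

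The clearest relation among the 10 genes was between A1bg and Prlr. In the rats with the lowest A1bg, control replicate 4 (11.64), NK603+R replicate 3 (12.27) and NK603 replicate 8 (12.36), Prlr was 10.33, 10.29 and 10.32. Over 28 rats, with diet means subtracted, Pearson's r was 0.88 (permutation of rats within diets, two-sided, p = 1e-05, the smallest that 100000 resamples can give, and adjusted p = 0.00045 over 45 pairs of genes). Spearman's rho was 0.90 (permutation p = 1e-05), and r was 0.94 without the 2 rats farthest from the median of A1bg. The relation was present within each diet, with r = 0.85 in control, 0.96 in NK603 and 0.97 in NK603+R rats, and r was 0.84 in the 19 rats killed at or after 700 days. With age at death and the acute phase mean also fitted, an addition made after the values were seen, r was 0.86.

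Cyp2c12, the third female gene, had no such relation past the threshold. Its r was -0.19 with A1bg (permutation p = 0.313, adjusted 0.482) and -0.22 with Prlr (permutation p = 0.297, adjusted 0.477). The SD of Cyp2c12 within diets was only 0.12, which limits what these values can show. The 3 rats with the lowest A1bg had Cyp2c12 signals of 13.02, 13.03 and 13.23, all above its median in the control group.

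**Figure D3:**
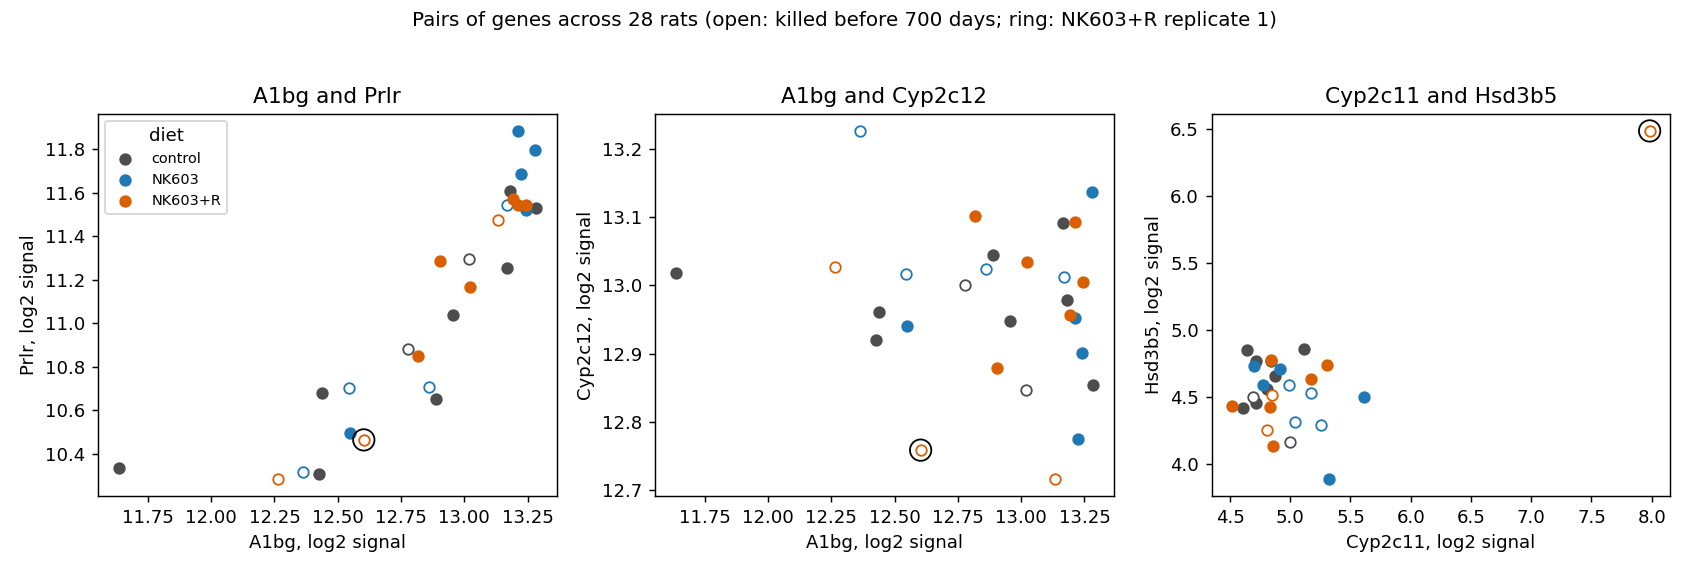
Log2 signals of A1bg against Prlr (left), A1bg against Cyp2c12 (middle) and Cyp2c11 against Hsd3b5 (right) in 28 rats, coloured by diet, open where killed before 700 days, with NK603+R replicate 1 ringed. A1bg and Prlr rise together (r = 0.88), A1bg and Cyp2c12 do not (r = -0.19), and in the right panel 27 rats form a cloud away from the ringed rat.

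Among the 5 male-pattern genes the correlations rested on NK603+R replicate 1. The 10 pairs had r from 0.29 to 0.77 with a median of 0.55, the highest for Cyp2c11 and Hsd3b5 (r = 0.77, permutation p = 0.0762, adjusted 0.264, rho = 0.25), and none passed an adjusted p under 0.05. Without that rat, a choice made after its values were seen, the 10 pairs had r from -0.11 to 0.27 with a median of 0.07, and Cyp2c11 and Hsd3b5 had r = -0.10. The mean signals of these genes without that rat lay below the lowest array median, and detection above background was not assessed. A low r there therefore cannot show that their RNA did not vary together. In all, 1 of 45 pairs passed, A1bg and Prlr. In the 19 rats killed at or after 700 days 2 pairs passed, with Cyp3a2 and Trim24 (r = 0.75) added to it, a pair that had r = 0.38 over all rats.

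**Figure D4:**
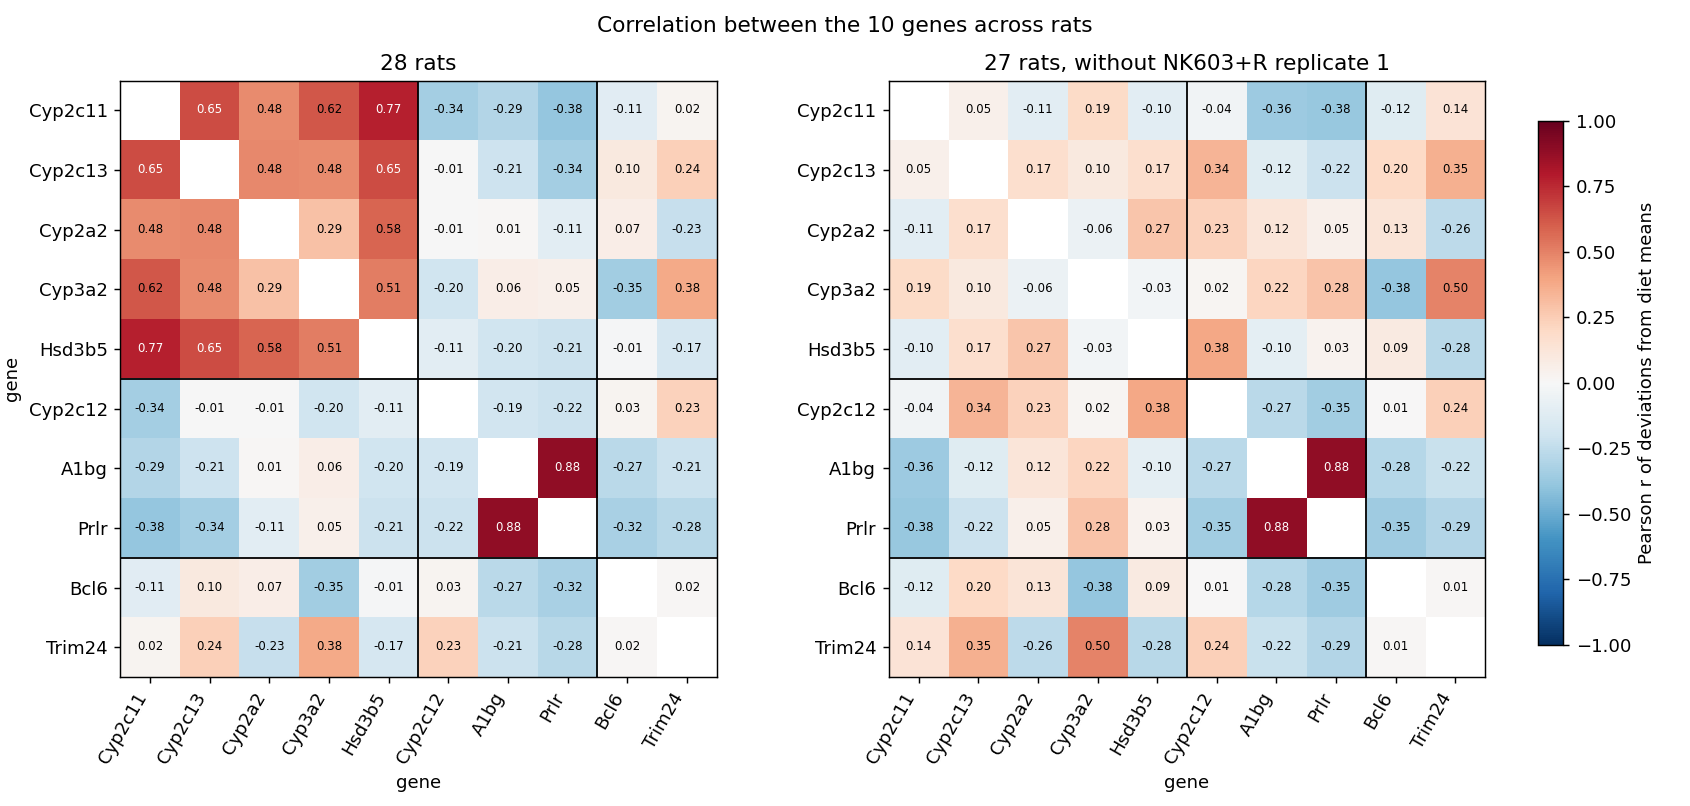
Pearson r between the 10 genes across rats, as deviations from diet means, over 28 rats (left) and over 27 rats without NK603+R replicate 1 (right), with red for positive and blue for negative r and black lines between male, female and regulator genes. The block of positive values among the male genes (0.29 to 0.77) is present on the left only, and A1bg with Prlr is 0.88 in both.

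Neither member of the A1bg and Prlr pair moved with the array median (r = -0.07 and 0.05), and none of the 10 genes did after adjustment over 20 relations. Prlr moved against the acute phase mean of the same rats (r = -0.58, permutation p = 0.00138, adjusted p = 0.0276), although rho was -0.55 with an adjusted p of 0.0742, and r was -0.40 without the 2 rats farthest from the median of that mean. For A1bg r was -0.43 (adjusted p = 0.0783). Among the male-pattern genes r was 0.38 for Cyp2c11, 0.37 for Hsd3b5, 0.36 for Cyp2c13, 0.37 for Cyp2a2 and -0.04 for Cyp3a2. None of these passed (permutation, smallest adjusted p = 0.126). Without the 2 farthest rats Cyp2c11, Hsd3b5 and Cyp2c13 had r = 0.64, 0.62 and 0.53. Without NK603+R replicate 1 they had r = 0.21, 0.19 and 0.19. The part of inflammation in the level of Prlr or of the male-pattern genes was not tested.

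The measured genes of the hormone's pathway, of liver factors acting with it and of the separate lists of sex-dependent genes were set beside Prlr in 39 relations chosen after values were seen. Ghr rose with Prlr (r = 0.81, permutation p = 1e-05, adjusted p = 0.00026, rho = 0.79), with r from 0.71 in control to 0.92 in NK603+R rats. Socs3, a feedback inhibitor induced by cytokines, fell with it (r = -0.78, permutation p = 2e-05, adjusted p = 0.00026, rho = -0.72). Cyp3a18, a steroid hydroxylase that is male-predominant in rats, also fell with it (r = -0.80, permutation p = 2e-05, adjusted p = 0.00026). With age and the acute phase mean fitted these values were 0.70 for Ghr, -0.63 for Socs3 and -0.74 for Cyp3a18. Cyp3a18 spanned 5.98 to 9.85 over the 28 rats, and Socs3 spanned 6.97 to 8.64.

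Onecut1, which encodes HNF6, had r = 0.55 with Prlr (adjusted p = 0.0304, adjusted p of rho = 0.0982), but r was 0.34 without the 2 farthest rats and 0.23 in the rats killed later, so that it rested on few animals. Its paralogue Onecut2 had r = -0.49 (adjusted p = 0.0413). Of the remaining genes, Jak2 (r = -0.46), Igf1 (-0.51), Cish (0.31), Socs2 (-0.27), Igfals (0.23), Stat5a (0.07) and Stat5b (0.03) did not pass by Pearson's r. By Spearman's rho, Jak2 (rho = -0.53) and Igf1 (rho = -0.55) did pass, each with an adjusted p of 0.0321, as did Stat3, Ptpn1 and Tox. In all, 5 of 39 relations passed by r, 2 positive and 3 negative, and 9 by rho, 2 positive and 7 negative. The share of all clusters that would pass in the same way was not computed. Prlr moved with many clusters, 166 of 36684 at r over 0.7 and 74 at r under -0.7. Of the 39 listed genes, Ghr, Socs3 and Cyp3a18 lay beyond these limits. Whether the listed genes moved with Prlr more often than other clusters was not tested.

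**Figure D5:**
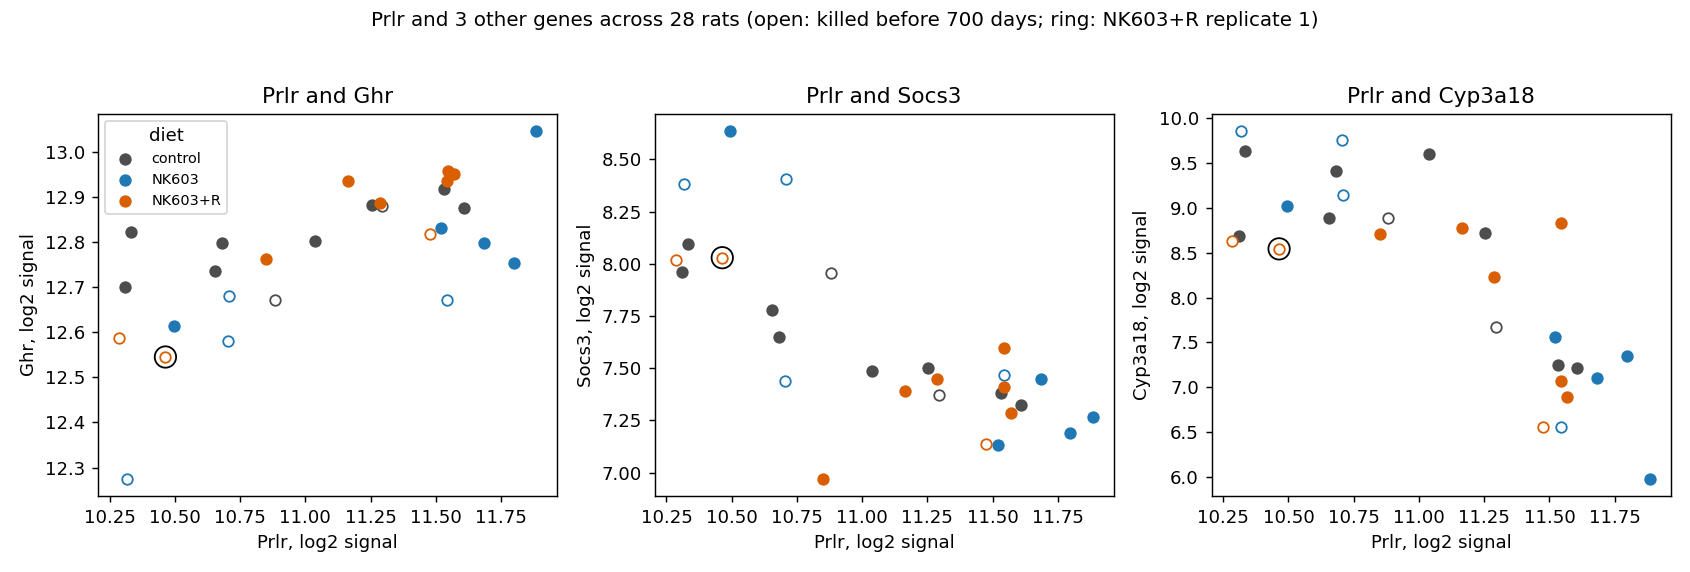
Log2 signal of Prlr (horizontal axes) against Ghr, Socs3 and Cyp3a18 (vertical axes) in 28 rats, coloured by diet, open where killed before 700 days, with NK603+R replicate 1 ringed. Ghr rises with Prlr (r = 0.81), and Socs3 (r = -0.78) and Cyp3a18 (r = -0.80) fall with it.

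Across diets, the pathway itself passed in few genes. Of 20 genes of growth hormone signalling, 18 were measured, and at an unadjusted p under 0.01 only Socs2, an inhibitor that the hormone induces, was higher in NK603 than in control rats (0.62, SE 0.21, p = 0.00833 by limma) and lower in NK603+R than in NK603 rats (-0.51, SE 0.18, p = 0.00919 by limma). None of the 18 passed for NK603+R against control, and over all clusters 1.19%, 1.14% and 1.04% passed in these comparisons. On age at death, Ghr had a slope of 0.09 per 100 days (SE 0.03, p = 0.00195 by limma) and Ptpn1, a phosphatase of JAK2, a slope of -0.11 (SE 0.04, p = 0.00577 by limma), with 1.98% of clusters below that limit. None passed an adjusted p under 0.05. The medians over the 18 genes were 0.00, -0.03 and -0.05 in the 3 diet comparisons and -0.03 per 100 days.

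Of 12 measured liver factors that act with the hormone, 1 passed at an unadjusted p under 0.01, the xenobiotic receptor Nr1i3, which was higher by 0.79 (SE 0.25, p = 0.00569 by limma) in NK603+R than in NK603 rats, where 1.14% of clusters passed. Of the 5 measured genes of the separate list of male-predominant genes, Car3, a carbonic anhydrase, was lower by -0.94 (SE 0.29, p = 0.00342 by limma) in NK603 than in control rats and higher by 1.05 (SE 0.25, p = 0.000472 by limma) in NK603+R than in NK603 rats, and Mup4 was lower in NK603+R than in control rats (-0.27, SE 0.09, p = 0.00891 by limma), against 1.19%, 1.14% and 1.04% of clusters in the same order. Of 4 measured genes of a list of female-predominant genes none passed in any diet comparison, against the same shares of clusters. For NK603 minus control, Sult2a2 differed by 1.55 (SE 0.69, unadjusted p = 0.0364 by limma) and Sult2a1 by 1.35 (SE 0.64, unadjusted p = 0.0479 by limma). Cyp3a9 differed by 0.45 and Cyp2a1 by -0.11. The SDs of Sult2a2 and Sult2a1 within diets lay at the 99.98th and 99.97th percentiles of all clusters. None of these passed the adjustment over all clusters.

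For each member the genes with the most similar profile over 28 rats, as deviations from diet means, are given as a description. A1bg was closest to Lifr, the receptor of leukaemia inhibitory factor (r = 0.95), and A1bgl1, an A1bg-like gene (0.93), with Prlr in place 3 of 18165 genes. Prlr was closest to the sodium-calcium exchanger Slc24a3 (0.95), A1bgl1 (0.94) and Cped1 (0.93), with Dpy19l3 at the opposite end (-0.87). Of 36684 other clusters, 166 had r over 0.7 with Prlr, 70 with A1bg and 25 with Cyp2c12, but 0 with Bcl6. Those with r under -0.7 numbered 74, 16, 10 and 0 in the same order. The genes closest to Cyp2c12 were Rplp2l3 (0.78), LOC100359700 (0.75) and Cycs, cytochrome c (0.73), and the lowest was Cadm3 (-0.81).

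For the male genes these lists again turned on NK603+R replicate 1. Cyp2c11 was closest to Hsd3b5 (0.77), Hdc, histidine decarboxylase (0.69), and Mup5 (0.69), and without that rat these values were -0.10, 0.13 and 0.19. Hsd3b5 was closest to Cyp2c11, Cyp2c13 (0.65) and Hdc (0.64), and Cyp3a2 to Cyp2c11 (0.62), Axin2, a target of Wnt signalling (0.62), and Pbk (0.61). Cyp2c13 differed, being closest to the chaperone Hspa4l (0.76, and 0.79 without that rat). Cyp2a2 was closest to Ccdc22 (0.68), Bcl6 to Slc25a36 (0.66) and Trim24 to Lmtk2 (0.75) and Cgnl1 (0.73).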

How the data were processed

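Total RNA from liver slices was hybridised by the authors to Affymetrix Rat Gene 2.0 ST arrays, and the deposited values are log2 gene-level signals normalised together by the authors with the Robust Multi-array Average in Expression Console. They were used as deposited, without a further filter. Clusters were named from the platform annotation, updated through RefSeq, with 18511 clusters carrying exactly 1 symbol. Groups came from the sample labels. The 10 genes, the lists and the tests were chosen with earlier results of these data known.

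Diets were compared in pairs, and age at death over all rats with diet as covariate, with limma 3.58.1 in R 4.3.3 and Benjamini-Hochberg adjustment over 36685 clusters. Correlations used deviations from diet means and 100000 permutations of rats within diets (numpy 2.4.6). Scripts were tested on simulated data. Genes outside the 10 were named where they belonged to a fixed set of pathway genes, had an unadjusted p under 0.01 in a list, or were among the 3 highest or the lowest in correlation with a member; genes high in NK603+R replicate 1, Rgn, Uty, the inflammation markers and those set beside Prlr were named after their values were seen. Each array is 1 rat, so precision is set by how many arrays a diet has. Alternatives covered the test, covariates, rats, centring and filters.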

Additional observations from a re-analysis of the deposited data

Results flagged for a closer look

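Of 30 groups (10 genes in 3 diets), 5 had a rat set apart from the others by Dixon's criterion, where chance alone gives about 1.5. In NK603+R replicate 1, Cyp2c11 was 7.98 with the next rat of its diet at 5.30, Hsd3b5 was 6.48 with the next at 4.77, and Cyp2a2 was 5.86 with the next at 4.69. A1bg was 11.64 in control replicate 4, with the next lowest control rat at 12.43. Trim24 was 8.58 in control replicate 1, with the next lowest at 9.08.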

How the results depend on the processing

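No setting brought a member past an adjusted p under 0.05 in any diet comparison or on age at death. Over settings other than leaving out 1 rat, 269 of 294 fitted values of the 10 genes kept their direction, and when 1 rat was left out 791 of 840 did. For NK603 against control, 1 member, Cyp2c11, had an unadjusted p under 0.01 when only clusters with 1 symbol were tested, and the count ranged from 0 to 1 when 1 rat was left out, with 1 without control replicate 3, control replicate 4, NK603 replicate 5 or NK603 replicate 7. For this difference the unadjusted p by limma was 0.297 in a fit of all 3 diets, whose variance takes in NK603+R replicate 1. It was 0.0780 without the rats killed before 700 days. In the other comparisons the count was 0 throughout. Among differences near 0, Cyp2c12 for NK603+R minus control turned to 0.00096 with age as covariate and 0.034 when the rats killed earlier than 700 days were dropped, and ranged from -0.033 to 0.015 with 1 rat left out. Prlr for NK603+R minus NK603 ranged from -0.16 to 0.053 with 1 rat left out.

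Slopes on age in the 19 rats that lived to 700 days or more span few days and turned for Cyp2a2 (-0.96 per 100 days), A1bg (-0.22), Prlr (-0.074), Trim24 (1.81) and Cyp2c12 (0.013). Cyp2c12 was also 0.026 higher in rats killed later than in those killed earlier, had a slope of 0.063 without NK603 rats, and ranged from -0.030 to 0.011 with 1 rat left out. The causes were not tested.

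In these 19 rats 2 pairs of genes passed in place of 1, and r was -0.046 for Cyp2c11 and Hsd3b5, -0.030 for Cyp2c11 and Cyp2c13 and -0.057 for Cyp2a2 and Hsd3b5. Cyp2c11 and Hsd3b5 had r = -0.13 without the 2 farthest rats and -0.10 without NK603+R replicate 1. A1bg and Prlr passed under each of the 7 alternatives that were tested for it.

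The replicate numbers do not pair rats: correlations between rats with the same number ran from -0.31 to 0.23. With the replicate number as a block, 0 of 10 members had an unadjusted p under 0.01 in each diet comparison, and all 10 kept their direction, with Cyp2c11 at 0.28 and Prlr at 0.30 for NK603 minus control. Each gene has 1 cluster, so no other cluster could be tried. With clusters below the median mean signal left out, 6 members remained, and the others had no value there.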
